A study of Rattus norvegicus with 9 samples.

Results

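The genes described here are 10 members of IL-1 and IL-6 family signalling, chosen by name: Il1b, Il1rn, Il1r1 and Il1r2 of the IL-1 family, and Il6, Lif, Il6r, Il6st, Osmr and Socs3 of the IL-6 family. All 10 were among the 37203 gene symbols counted, and all 10 were among the 15482 genes tested. Il1b, Il1rn, Il1r2 and Lif had few reads and passed the filter on low counts only through the libraries in which they were high, and Il6, with at most 6 counts in a normal library, passed it only through ischemic libraries. Transcripts were counted in the superior mesenteric artery (SMA), which feeds most of the small intestine, of Sprague-Dawley rats aged 8 weeks. The 9 libraries formed 3 groups of 3, namely a normal group, a group killed 1 h into ischemia and a group killed 4 h into it. Ischemia was produced by bleeding through a femoral artery catheter under sodium pentobarbital anaesthesia, and time was counted once the model stood. Whether the normal rats were anaesthetised and catheterised was not stated in the sources used here, so bleeding, surgery and anaesthesia cannot be told apart in any comparison with them.

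IL-1β is made by innate immune and other cells and binds IL-1R1, which switches on NF-kB through the adaptor MyD88. A pair of brakes acts at the cell surface: IL-1Ra, the product of Il1rn, occupies IL-1R1 without signalling, and IL-1R2 is a decoy that binds IL-1β without a signal. Most cytokines of the IL-6 family signal through gp130, the product of Il6st, joined by a receptor for each ligand. IL-6 uses IL-6R, leukaemia inhibitory factor (Lif) uses LIFR, and oncostatin M uses OSMR. The JAK kinases then activate STAT3, and SOCS3 is a STAT3 target that shuts gp130 signalling down again. In arteries, smooth muscle, endothelium and adventitial fibroblasts can all make IL-6, and IL-1 is a classical inducer of it.

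The promoters of the ligands Il6 and Il1b are shown because these genes start the respective signals and because their counts behaved differently. Each sequence holds the 250 bases before the RefSeq start site on the GRCr8 assembly, read 5′ to 3′ on the gene's own strand, which is the minus strand for both genes. Il6 lies at chr4:5894576-5894825 and Il1b at chr3:137036582-137036831. Capitals mark matches to the searched motifs.
Il6: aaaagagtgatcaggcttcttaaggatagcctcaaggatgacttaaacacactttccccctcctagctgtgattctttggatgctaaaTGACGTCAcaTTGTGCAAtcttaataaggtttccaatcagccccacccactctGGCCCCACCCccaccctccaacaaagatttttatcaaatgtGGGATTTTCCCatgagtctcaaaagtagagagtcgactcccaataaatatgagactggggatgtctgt
Il1b: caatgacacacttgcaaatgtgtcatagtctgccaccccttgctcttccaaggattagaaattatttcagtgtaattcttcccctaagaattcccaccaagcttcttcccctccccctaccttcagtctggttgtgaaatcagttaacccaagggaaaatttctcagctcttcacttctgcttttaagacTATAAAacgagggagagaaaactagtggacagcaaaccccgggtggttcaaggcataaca

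Transcription factor motifs were searched on both strands, with positions counted back from the start site. The Il6 window held a cyclic AMP response element (CRE, TGACGTCA) from -162 to -155, which occurred in 1.59% of 33469 rat promoter windows of the same length. A C/EBP motif (TTGCNNAA) followed on the minus strand from -152 to -145, a motif present in 9.22% of windows. An NF-kB motif (GGG and CC with any 5 bases between them) matched 3 times, from -109 to -100 and in an overlapping pair from -68 to -59 and -67 to -58, and 42.3% of windows held it at least 1 time. The Il1b window held only a TATA box (TATAAA) from -60 to -55, present in 12.9% of windows. Neither window matched the STAT motif TTCNNNGAA (7.67% of windows) or the AP-1 motif TGANTCA (6.34%). These matches describe the letters in the windows and were not tied to any measurement of binding. The windows of 6 further genes of the 10 did not end at the outermost annotated start and are not shown, and Il1r2 and Lif had no entry.

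Library totals ranged from 13114273 to 15504240 counts, so that 1 CPM (counts scaled to a common library size, on library sizes scaled by the TMM method) stood for 12.1 to 17.9 counts. The spread between rats was wide, with a common biological coefficient of variation of 51.6%. Smooth muscle markers were present in all libraries, their sum lying between 10413 and 65403 CPM, and fibroblast and endothelial markers were detected throughout. Libraries also differed in peripheral nerve genes, whose mean log2 CPM over 20 genes (the nerve score) was 5.35, 0.02 and 4.22 in normal replicates 1 to 3, 8.14, 5.59 and 8.32 at 1 h, and 0.97, 1.58 and 8.21 at 4 h. In whole tissue, more cells of a type and more RNA per cell cannot be told apart. To be called, a gene had to differ by more than 1.5-fold and to have an adjusted p below 0.05 in edgeR's quasi-likelihood test with Benjamini-Hochberg adjustment over all genes tested.

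**Figure D1:**
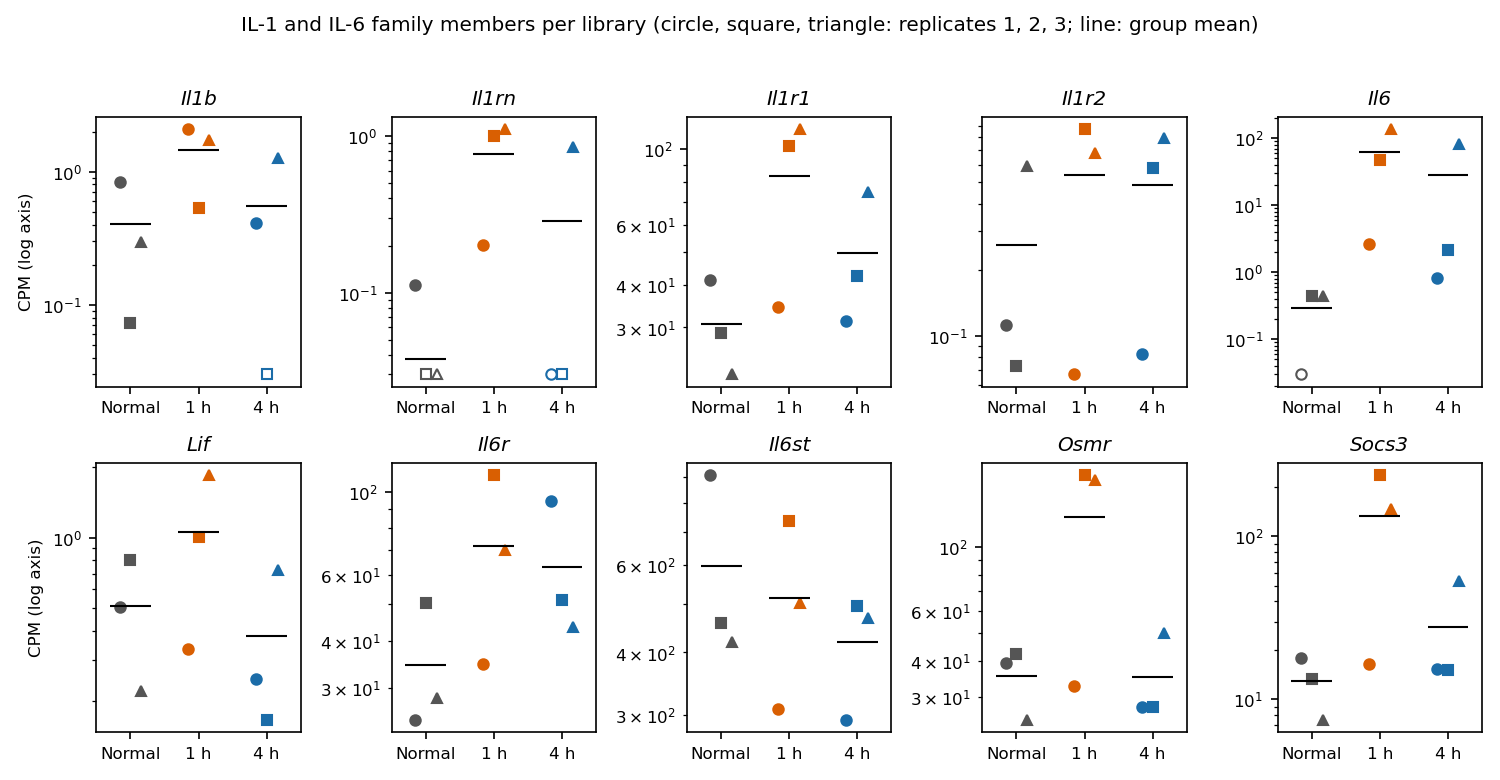
CPM of the 10 genes in each of the 9 libraries, 1 panel per gene, on log axes that differ between panels. Points are single rats, horizontal bars are group means, and open symbols at the bottom of a panel are libraries with a count of 0. Il6 reached 135 CPM at 1 h and 80.9 CPM at 4 h, whereas no normal library exceeded 0.443 CPM.

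Il6 varied most among the 10 genes on the log2 scale, with an SD of 3.57 over the 9 libraries. It had 0, 6 and 6 counts in the normal libraries (0, 0.438 and 0.443 CPM), 39, 712 and 2205 counts after 1 h of ischemia (2.61, 47.6 and 135 CPM), and 10, 26 and 1226 counts after 4 h (0.827, 2.16 and 80.9 CPM). Every ischemic library thus lay above every normal library, but ischemic rats differed among themselves by far more than the normal rats did. Replicates 2 and 3 at 1 h and replicate 3 at 4 h carried most of the signal. Group means were 0.294 ± 0.254 CPM in normal rats, 61.9 ± 67.6 CPM at 1 h and 28.0 ± 45.9 CPM at 4 h (SD, n = 3 each). The pooled Il6 count was 241-fold above normal at 1 h (95% interval 137 to 466) and 121-fold above normal at 4 h (68.8 to 234), intervals that cover counting error only.

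Judged against the spread between rats, these differences did not pass the threshold. In edgeR, the log2 fold change of Il6 was 7.75 (SE 2.35, adjusted p = 0.232) at 1 h and 6.61 (SE 2.26, adjusted p = 0.291) at 4 h. DESeq2, which estimates the spread of each gene in another way, called Il6 at both times (adjusted p = 0.00425 and 0.0217). Over all alternatives the adjusted p ran from 0.00425 to 0.597 at 1 h and from 0.0217 to 0.579 at 4 h. At 1 h the log2 fold change was 6.42 without replicate 3 and 7.11 to 8.31 without any other library. At 4 h the size rested on 1 rat: without replicate 3 it was 2.40, and without any other library it was 5.96 or more.

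Socs3, the feedback inhibitor of gp130 signalling, was measured at 17.9, 13.3 and 7.46 CPM in normal rats, at 16.5, 237 and 148 CPM after 1 h, and at 15.3, 15.3 and 53.2 CPM after 4 h. Replicates 2 and 3 at 1 h stood far above the normal rats, while replicate 1 at 1 h lay inside the normal range. At 4 h, replicates 1 and 2 also lay inside it, and replicate 3 lay above. For Socs3, edgeR gave a log2 difference from normal of 3.37 (SE 0.94, adjusted p = 0.222) at 1 h and 1.11 (SE 0.87, adjusted p = 0.619) at 4 h. DESeq2 called Socs3 at 1 h (adjusted p = 0.00339), and over all alternatives the adjusted p there ran from 0.00339 to 0.589. At 4 h the log2 fold change was 0.27 without replicate 3.

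Osmr, which codes for the oncostatin M receptor, followed a similar order of libraries. Its level was 39.6, 42.5 and 25.0 CPM in normal rats, 32.7, 177 and 170 CPM after 1 h, and 27.8, 27.7 and 50.3 CPM after 4 h. Replicate 1 at 1 h again fell within the normal range, and the 1 h and normal groups therefore overlapped. Its log2 fold change at 1 h was 1.83 (SE 0.59, adjusted p = 0.240 in edgeR), and DESeq2 called the gene (adjusted p = 0.0399, with 0.0399 to 0.597 over the alternatives). At 4 h the mean was 35.3 ± 13.03 CPM against 35.7 ± 9.39 CPM in normal rats, and the 95% interval of the log2 fold change ran from -1.13 to 1.10. Its sign at 4 h turned with the scaling, being -0.02 with TMM factors and 0.01 with relative log expression factors.

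Il6st, the shared gp130 chain, showed no such pattern. It was measured at 909, 459 and 420 CPM in normal rats, 307, 734 and 502 CPM at 1 h, and 292, 495 and 470 CPM at 4 h. The 3 groups overlapped throughout, and the highest value was in a normal rat. The 95% interval of the log2 fold change was -1.05 to 0.62 at 1 h and -1.35 to 0.33 at 4 h, so differences of up to about these sizes remain possible.

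Il6r, the ligand-binding IL-6 receptor, had 24.6, 50.4 and 28.2 CPM in normal rats, 34.7, 110 and 69.7 CPM at 1 h, and 94.4, 51.2 and 43.6 CPM at 4 h. At 4 h its highest library was replicate 1, the library with the lowest Il6 count of the ischemic rats. Its log2 fold change was 1.06 (SE 0.48, adjusted p = 0.310 in edgeR) at 1 h and 0.87 (SE 0.48, adjusted p = 0.4999) at 4 h. With the nerve score in the model, the 1 h value was 1.74 (SE 0.42, adjusted p = 0.278).

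Lif, the other gp130 ligand among the 10 genes, stayed at low counts. It had 9, 11 and 3 counts in normal rats (0.504, 0.803 and 0.222 CPM), 5, 15 and 30 counts at 1 h (0.334, 1.00 and 1.84 CPM), and 3, 2 and 11 counts at 4 h (0.248, 0.166 and 0.726 CPM). All 3 groups overlapped. The pooled count ratio was 2.12 at 1 h (95% counting interval 1.27 to 3.65) and 0.798 at 4 h (0.394 to 1.58), and the edgeR log2 fold changes were 1.05 (SE 0.82, adjusted p = 0.490) and -0.39 (SE 0.85, adjusted p = 0.878).

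In the IL-1 family, the receptor Il1r1 had the most reads behind it. Its level was 41.3, 28.9 and 21.9 CPM in normal rats, 34.4, 102 and 114 CPM after 1 h, and 31.4, 42.5 and 75.1 CPM after 4 h. Replicates 2 and 3 at 1 h and replicate 3 at 4 h were again the highest, and replicate 1 at each time lay within the normal range. The log2 fold change was 1.45 (SE 0.50, adjusted p = 0.261 in edgeR) at 1 h and 0.69 (SE 0.49, adjusted p = 0.585) at 4 h, where it was 0.29 without replicate 3.

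The ligand Il1b was scarce in every library. Normal rats had 15, 1 and 4 counts (0.840, 0.073 and 0.295 CPM), rats at 1 h had 31, 8 and 28 counts (2.07, 0.535 and 1.72 CPM), and rats at 4 h had 5, 0 and 19 counts (0.413, 0 and 1.25 CPM). Its highest libraries were replicates 1 and 3 at 1 h, followed by replicate 3 at 4 h. These were also the 3 libraries with the highest nerve scores. The log2 fold change at 1 h was 1.79 (SE 1.19, adjusted p = 0.422 in edgeR), and 0.21 (SE 0.97, adjusted p = 0.970) with the nerve score in the model. At 4 h it was 0.45 (SE 1.20, adjusted p = 0.903), and -0.94 without replicate 3. The part of nerve tissue in these values was not tested.

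Il1rn, which codes for the IL-1 receptor antagonist, was almost absent from normal rats, with 2, 0 and 0 counts. After 1 h it had 3, 15 and 18 counts (0.201, 1.00 and 1.11 CPM), and after 4 h it had 0, 0 and 13 counts (0.858 CPM in replicate 3). All 1 h libraries lay above all normal libraries, and at 4 h only replicate 3 had any read. The pooled ratio was 17.6 at 1 h (95% counting interval 4.53 to 151) and 7.46 at 4 h (1.69 to 68.1). In edgeR the log2 fold change was 3.94 (SE 1.70, adjusted p = 0.297) at 1 h and 2.60 (SE 1.75, adjusted p = 0.571) at 4 h. Without replicate 3 no 4 h read was left, and the fitted 4 h value was -2.55, a size that depends on the prior count. Without normal replicate 1, the only normal library with an Il1rn read, the fitted values were 6.46 at 1 h and 5.12 at 4 h, sizes that then depend on the prior count of the fit.

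Il1r2, the decoy receptor, had 2, 1 and 8 counts in normal rats, 1, 13 and 11 counts at 1 h, and 1, 7 and 12 counts at 4 h. The groups overlapped at both times. The pooled ratio was 2.22 at 1 h (95% counting interval 1.05 to 4.997) and 2.09 at 4 h (0.953 to 4.82), and neither edgeR comparison passed the threshold (adjusted p = 0.621 and 0.762).

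**Figure D2:**
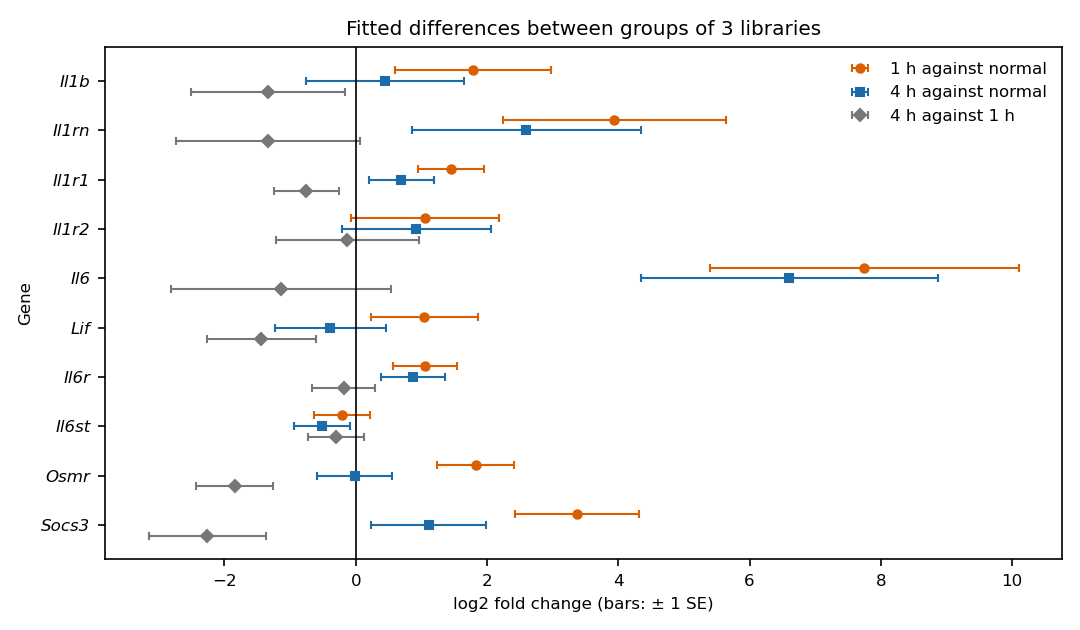
Log2 fold changes of the 10 genes in the 3 contrasts, with bars of 1 SE to each side from the edgeR quasi-likelihood fit of all 9 libraries. Il6 has the largest fitted value at 1 h (7.75) and at 4 h (6.61), and in these contrasts Il6, Il1rn, Il1b and Il1r2 have the longest bars.

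Counted over the 10 genes, edgeR called 0 at 1 h, where 0.0581% of all genes tested were called, and 0 at 4 h, where 0.0904% were called. At an unadjusted p under 0.05, Socs3, Osmr and Il1r1 were higher at 1 h, as were Il6 and Il1rn, beside 7.98% of all genes, and Il6 was the only one at 4 h beside 5.07%. DESeq2 called Il6, Socs3 and Osmr as higher at 1 h (2.29% of all genes) and Il6 at 4 h (1.54%). The groups did not overlap for Il6 and Il1rn at 1 h (12.8% of all genes were higher without overlap) and for Il6 at 4 h (7.93%). Since Il6 and Il1rn were tested only because of the libraries in which they were high, their place in these counts was favoured by the filter, and nothing is read from the counts against the shares of all genes. The median log2 fold change of the 10 genes, given as a description under the same limit, was 1.62 at 1 h and 0.78 at 4 h, beside -0.01 and 0.03 over all genes tested. Leaving out 1 library gave 1 h values from 1.32 to 2.91 for Il1b, 0.55 to 2.42 for Il1r2, 0.38 to 1.52 for Lif, 0.60 to 1.43 for Il6r, -0.56 to 0.23 for Il6st, 2.67 to 3.90 for Socs3, 1.51 to 2.28 for Osmr and 1.16 to 1.82 for Il1r1. The contrasts with normal share the same 3 normal libraries, so the values at 1 h and 4 h are set side by side and not compared through them.

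Set directly against 1 h, all 10 genes had a lower fitted level at 4 h. Of the 15482 genes tested, 7178 had a higher one. The median difference was -1.24 for the 10 genes beside -0.04 over all genes. These figures are descriptions only. Il6, Il1rn, Il1b, Il1r2 and Lif were tested only because of libraries in which they were high. The 10 genes were also chosen with earlier results known, so nothing is read from these figures. Socs3 differed by -2.26 (SE 0.90) and Osmr by -1.84 (SE 0.59) on the log2 scale, each with an adjusted p = 0.856 in edgeR. Both had an unadjusted p under 0.05, as had 1.25% of all genes on the lower side, but neither edgeR nor DESeq2 called any gene of the whole table here (0%). For Il6 the difference was -1.14 (SE 1.68, adjusted p = 0.860), and it was 0.16 without replicate 3 at 1 h and -5.36 without replicate 3 at 4 h. With all 3 groups in 1 test, edgeR called none of the 10 (0.0388% of all genes) while 3 had an unadjusted p under 0.05 (Il6, Osmr and Socs3; 11.4% of all genes). DESeq2 called Socs3 and Osmr there (adjusted p = 0.00813 and 0.0249; 4.32% of all genes).

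**Figure D3:**
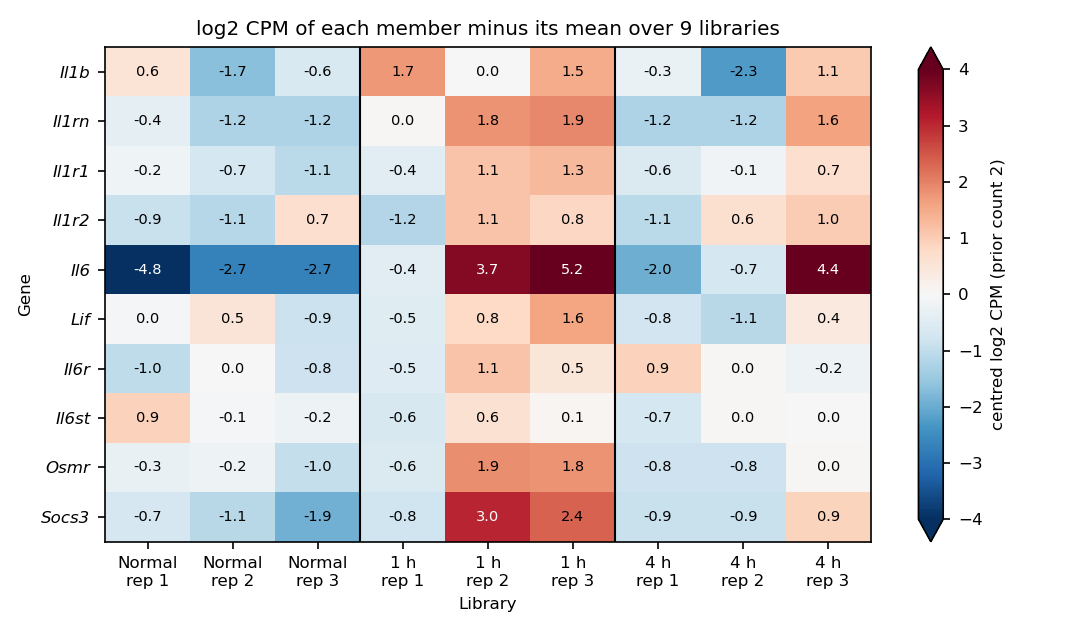
Log2 CPM of each gene (prior count 2), centred on the gene's own mean over the 9 libraries, with genes in rows and libraries in columns and with colours that saturate beyond 4 on either side. Replicates 2 and 3 at 1 h and replicate 3 at 4 h are high for Il6 (3.67, 5.18 and 4.43 above its mean), and replicate 1 at 1 h is at -0.45.

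The same rats were high for several of these genes. Il6, Il1rn, Il1r1, Il1r2, Osmr and Socs3 each had their 3 highest values in replicates 2 and 3 at 1 h and replicate 3 at 4 h, an arrangement shared by 439 of all genes tested (2.84%). This pattern was chosen after the values were seen and carries no test. Il1b, Lif, Il6r and Il6st were arranged otherwise. The nerve scores of these 3 libraries were 5.59, 8.32 and 8.21, and that of replicate 1 at 1 h was 8.14. With the nerve score in the model, the log2 fold change at 1 h was 5.39 (SE 2.05) for Il6, 2.97 (SE 1.02) for Socs3, 1.70 (SE 0.70) for Osmr and 1.08 (SE 0.55) for Il1r1. The part of nerve tissue in this pattern was not tested.

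Markers of other cell types were read beside these values. The summed level of 11 neutrophil genes was 1.18 to 3.19 CPM in normal rats, 2.07 to 6.69 CPM at 1 h and 0.992 to 5.02 CPM at 4 h, only 2 of the 11 passed the low-count filter, and Elane was at 0 in all libraries. Mpo alone had 45, 11 and 6 counts in the normal libraries, 75, 8 and 31 counts in those taken at 1 h, and 11, 1 and 40 counts in those taken at 4 h. S100a9 had 1, 3 and 0 counts in the normal libraries, 12, 7 and 11 counts after 1 h, and 0, 12 and 12 counts after 4 h. S100a8 and Mmp8 had no count in any normal library, with 3, 2 and 3 counts of S100a8 after 1 h and 0, 7 and 1 counts after 4 h, and with 1, 4 and 6 counts of Mmp8 after 1 h and 0, 7 and 5 counts after 4 h. For these 3 genes every 1 h library lay above every normal library, as it did for Il6, Il1rn and 12.8% of all genes tested. S100a8 and Mmp8 did not pass the low-count filter. None of the other genes of the list was separated in this way. Csf3r had 9, 4 and 1 counts in the normal libraries and 2, 9 and 13 counts at 1 h. Camp had 1, 0 and 9 counts in the normal libraries and 0, 0 and 1 counts at 1 h. Macrophage genes (9 of 10 in the table) summed to 52.5 to 231 CPM in normal rats, 95.7 to 218 CPM at 1 h and 41.2 to 134 CPM at 4 h. The highest sum was in normal replicate 1, which had no Il6 read. In each ischemic group, however, the highest sum was in replicate 3, which also had the highest Il6 count of its group. For 8 lymphocyte genes the sums were 0.369 to 20.2, 0.201 to 37.0 and 0.330 to 1.24 CPM, none passed the filter, and Cd79a was at 0 throughout. Adipocyte genes summed to 212 to 1159 CPM in normal rats, 361 to 1223 CPM at 1 h and 193 to 494 CPM at 4 h. The ranges of the summed levels overlapped between groups for each of these lists, and the part of these cells in the results was not tested.

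Receptor chains were also expressed per 100 counts of Il6st in the same library, which cancels library size. This ratio was chosen after the values were seen and is given as a description. For Osmr the normal libraries had ratios of 4.36, 9.25 and 5.95, those at 1 h had 10.6, 24.1 and 33.9, and those at 4 h had 9.50, 5.59 and 10.7. All 3 libraries at 1 h lay above the normal libraries, although replicate 1 did so by a narrow margin, and at 4 h replicate 2 lay within the normal range. Replicate 1 at 1 h had Osmr within the normal range (32.7 CPM) and Il6st below it (307 CPM against 420 to 909 CPM). Its ratio therefore also reflects a low Il6st count. For Il6r the normal libraries had 2.70, 11.0 and 6.72, those at 1 h had 11.3, 15.04 and 13.9, and those at 4 h had 32.3, 10.3 and 9.27. The group means were 6.52 ± 2.498, 22.9 ± 11.7 and 8.60 ± 2.67 for Osmr, and 6.80 ± 4.14, 13.4 ± 1.91 and 17.3 ± 13 for Il6r (SD, n = 3 each). For Lifr the normal libraries had ratios of 16.8, 11.2 and 10.3, those at 1 h had 31.5, 15.2 and 23.1, and those at 4 h had 5.80, 14.4 and 27.98. For Cntfr the normal libraries had ratios of 2.40, 2.19 and 1.23, those at 1 h had 14.9, 3.36 and 6.42, and those at 4 h had 1.697, 4.96 and 9.17, with all 1 h libraries above all normal ones. Il11ra1 lay the other way in its means, with 25.2 ± 14.8 in normal rats, 13.5 ± 3.06 at 1 h and 23.2 ± 11.5 at 4 h. Since no transcript lengths were used, these ratios compare libraries and not the amounts of the receptors.

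**Figure D4:**
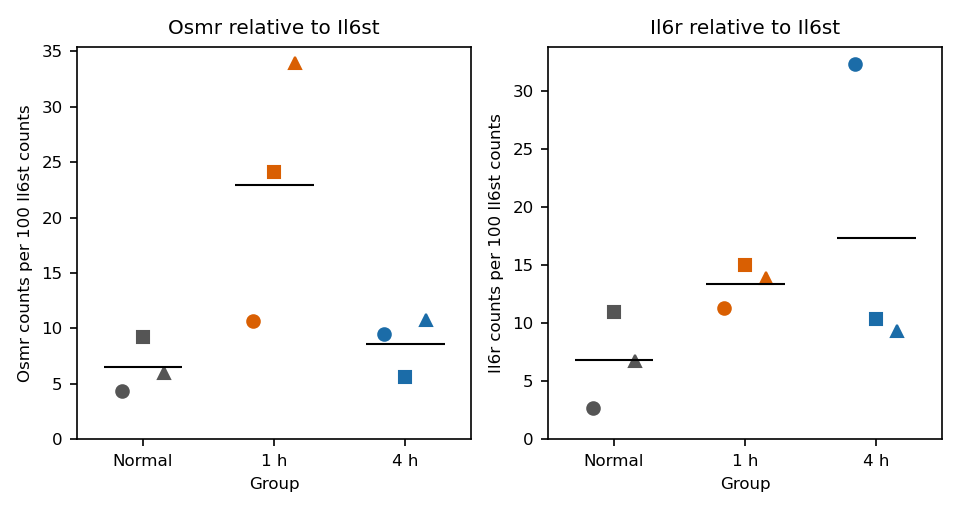
Counts of gp130 partner receptors per 100 counts of Il6st in each library, by group, for Osmr and Il6r, with points for single rats (circle, square and triangle for replicates 1, 2 and 3) and bars for group means. Osmr averaged 6.52 in normal rats, 22.9 at 1 h and 8.60 at 4 h.

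To place each gene among the rest, the root mean square difference of centred log2 CPM over the 9 libraries was computed against 13130 other named genes. Closest to Il6 were Rnd1 (1.40) and the cytokine genes Cxcl2 (1.47) and Csf3 (1.57), where the median over all genes was 3.38. Closest to Socs3 were Sbno2 (0.45), Birc3 (0.49), which codes for an inhibitor of apoptosis, and Tfpi2 (0.53), beside a median of 1.68. Osmr lay nearest to Gfpt2 (0.31), Myc (0.35) and Rnf122 (0.38), and Il1r1 to Rnf144b (0.22), Gpr4 (0.22) and Phlda1 (0.23). Il1rn was nearest to Trib1 (0.40), Gbp5 (0.45) and Akap12 (0.51). For Il6r the nearest gene after Spsb1 (0.20) was Ptpn2 (0.22), which codes for a phosphatase of the JAK kinases, followed by Top1 (0.26). Il6st was nearest to Arrb1 and Cp, Il1b to Amz1, L3mbtl1 and Slc28a1, Lif to Gpr133, Tmem2 and Nhsl1, and Il1r2 to Ripk2, Dnah17 and Pcdhb4. Genes with little variation or few reads score low on this measure, so its values are compared within 1 gene only.

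The wider pathways were read through 80 further genes, of which 79 were in the table and 64 were tested. These lists were chosen with earlier results of these data known, so counts and medians over them are descriptions only. In edgeR, 1 of the 64 was called at 1 h (0.0581% of all genes) and 1 at 4 h (0.0904%). In both cases it was Nfkbia, which codes for the inhibitor IκBα and is itself induced by NF-kB. Nfkbia was measured at 125, 94.1 and 103 CPM in normal rats, 495, 659 and 483 CPM at 1 h, and 514, 891 and 690 CPM at 4 h. No ischemic library came near the normal range, including the ischemic replicates in which Il6, Socs3 and Il1r1 were low. Nfkbia rose by a log2 fold change of 2.35 at 1 h (SE 0.28, adjusted p = 0.0454) and of 2.70 at 4 h (SE 0.28, adjusted p = 0.0247) in edgeR. The 1 h call was lost in each of the 9 fits that left out 1 library, and the 4 h call in 6 of the 9, being kept without replicate 2 at 1 h and without replicate 1 or replicate 3 at 4 h.

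The brakes of IL-1 signalling had the highest median of the IL-1 roles, at 1.99 at 1 h and 1.64 at 4 h over 5 genes, with 1 called by edgeR at each time. Beside Nfkbia, Zc3h12a, which codes for an RNase that degrades Il6 mRNA, had 23.1 ± 5.71 CPM in normal rats, 91.5 ± 44.7 CPM at 1 h and 72.1 ± 17.4 CPM at 4 h (SD, n = 3 each). Its log2 fold changes were 1.99 (SE 0.41, adjusted p = 0.159 in edgeR) and 1.64 (SE 0.40, adjusted p = 0.167). Tnfaip3, the gene of the ubiquitin-editing enzyme A20, was at 17.1 ± 4.30, 122 ± 63.2 and 92.9 ± 83.2 CPM, with adjusted p = 0.210 and 0.223 in edgeR. DESeq2 called these 3 of the 5 brakes as higher at both times, beside 2.29% of all genes at 1 h and 1.54% at 4 h. Since the list was chosen with earlier results known, nothing is read from this count or from the medians. It called neither Tollip nor Irak3. Their edgeR log2 fold changes were 0.45 and 0.21 for Tollip and -0.05 and -0.53 for Irak3, at 1 h and 4 h.

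Among signal transducers of the IL-1 receptor, edgeR called 0 of 14. DESeq2 called Irak2 as higher at 1 h and 4 h (adjusted p = 0.00405 and 0.0149) and Traf6 at 4 h (adjusted p = 0.0115). Over all genes, DESeq2 called 2.29% as higher at 1 h and 1.54% at 4 h. The kinase gene Irak2 was at 9.93 ± 3.42, 32.0 ± 12.2 and 27.9 ± 7.78 CPM in normal, 1 h and 4 h rats, with adjusted p = 0.194 and 0.188 in edgeR. Traf6, the ubiquitin ligase downstream of the IRAK kinases, was at 6.14 ± 1.91, 12.0 ± 2.58 and 14.3 ± 3.46 CPM, and Tab1 at 33.4 ± 4.89, 20.6 ± 3.71 and 21.9 ± 4.06 CPM. Of the 4 receptors tested, edgeR called 0 and DESeq2 called Sigirr as lower at 4 h (adjusted p = 0.0173), beside 367 of all 15482 genes. Il1rap, the co-receptor of IL-1R1, was at 8.08 ± 3.96, 17.4 ± 2.77 and 14.7 ± 4.65 CPM. Sigirr, a negative regulator of the family, was at 9.96 ± 1.59, 6.02 ± 1.34 and 4.42 ± 1.25 CPM, with all ischemic libraries below all normal ones. Of all 15482 genes, 2088 were lower without overlap at 1 h and 1667 at 4 h. Il33, an alarmin of the same family, was at 114 ± 26.5, 77.5 ± 2.96 and 55.3 ± 22.6 CPM, and of 3 ligands or antagonists tested neither edgeR nor DESeq2 called any. The other 2 were Il18 at 1.95 ± 0.805, 4.80 ± 4.93 and 1.67 ± 1.85 CPM and its binding protein Il18bp at 11.5 ± 0.310, 15.1 ± 4.08 and 12.9 ± 2.44 CPM. Of the 5 ligand-processing genes tested, neither tool called any, and their medians were -0.50 at 1 h and -0.85 at 4 h. Pycard, the inflammasome adaptor ASC, was at 2.16 ± 1.01, 0.946 ± 0.254 and 0.606 ± 0.094 CPM. Casp1, the protease that matures IL-1β, was at 14.5 ± 8.99, 8.57 ± 3.12 and 8.05 ± 2.11 CPM, and the pore-forming gene Gsdmd at 23.1 ± 2.44, 16.3 ± 1.77 and 19.7 ± 5.51 CPM.

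**Figure D5:**
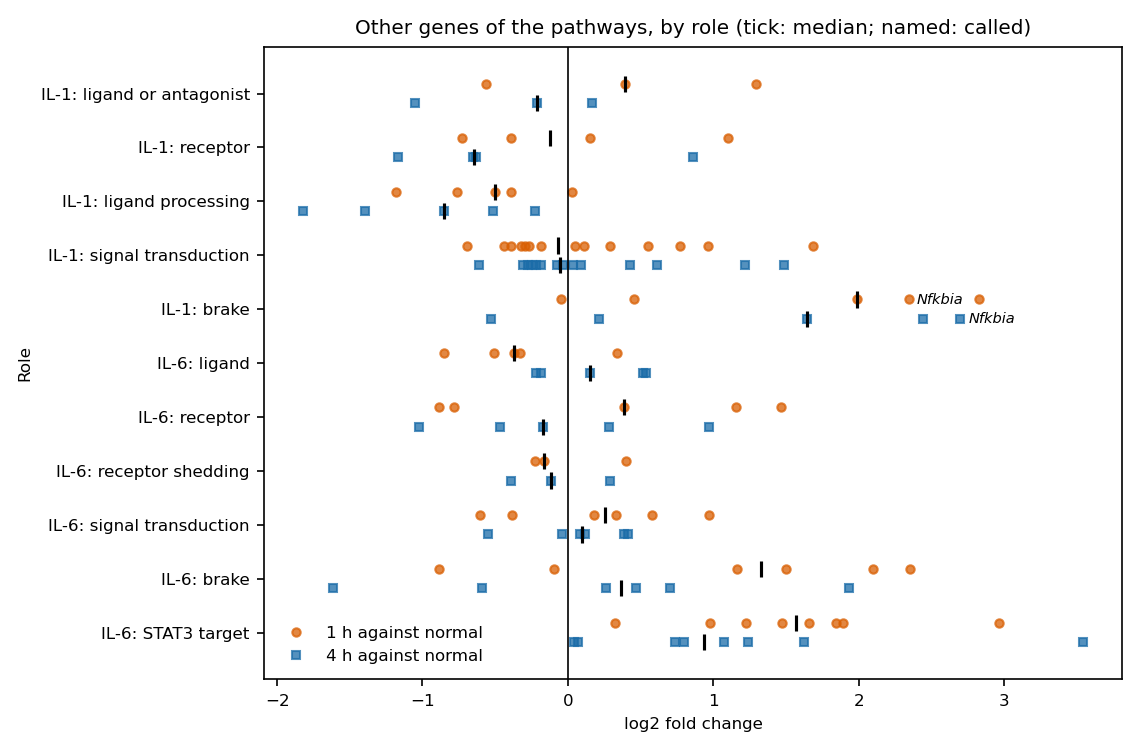
Log2 fold changes of the 64 tested pathway genes at 1 h and at 4 h against normal, 1 row per role, with a point per gene and a bar for the median of the role. Brakes of IL-1 signalling (medians 1.99 and 1.64) and STAT3 targets (1.57 and 0.94) lie furthest to the right, and Nfkbia is the gene called at each time.

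On the IL-6 side, 33 of 37 genes were tested and edgeR called 0 at either time. DESeq2 called 7 as higher at 1 h (Jak1, Stat3, Socs2, Cish, Cebpd, Cebpb and Il4r), beside 2.29% of all genes tested. It called 1 as lower at 1 h (Pias3), beside 347 of all 15482 genes. At 4 h it called 2 as higher (Socs2 and Cebpb), beside 1.54% of all genes. All 8 STAT3 targets had a log2 fold change above 0 at both times (medians 1.57 and 0.94), where 7655 and 8097 of the 15482 genes did so. Some of these values were small, such as 0.33 and 0.04 for Mcl1, and 0.07 for Timp1 at 4 h. The list was chosen with earlier results of these data known, so nothing is read from these counts, signs or medians. Cebpb, a transcription factor of the acute phase response, was at 13.7, 32.0 and 32.9 CPM in normal rats, 223, 281 and 111 CPM at 1 h, and 335, 388 and 193 CPM at 4 h. All ischemic libraries lay above all normal ones, as for 12.8% of all genes at 1 h and 7.93% at 4 h. The 1 h and 4 h groups overlapped. Replicate 1 at each time was high for Cebpb although it was low for Il6 and Socs3. The log2 fold change of Cebpb was 2.97 (SE 0.49, adjusted p = 0.117 in edgeR) at 1 h and 3.54 (SE 0.50, adjusted p = 0.0614) at 4 h. Its relative Cebpd was at 43.8 ± 12.0, 157 ± 85.0 and 103 ± 13.7 CPM, and Il4r, which codes for the interleukin-4 receptor, at 69.6 ± 18.0, 193 ± 81.5 and 147 ± 66.0 CPM.

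The brakes of JAK and STAT signalling held genes that were arranged differently from Socs3. Socs2 was at 30.6, 14.2 and 11.8 CPM in normal rats, 40.3, 67.5 and 52.3 CPM at 1 h, and 78.1, 80.3 and 58.0 CPM at 4 h. Its ischemic libraries lay above all normal ones, as for 12.8% of all genes at 1 h and 7.93% at 4 h. The log2 fold changes of Socs2 were 1.498 (SE 0.38, adjusted p = 0.210 in edgeR) and 1.93 (SE 0.38, adjusted p = 0.0997). Cish, a STAT5 target of the same family, was at 5.82, 2.92 and 1.77 CPM in normal rats, 25.2, 13.04 and 15.8 CPM at 1 h, and 1.57, 4.15 and 6.93 CPM at 4 h. All 1 h libraries of Cish lay above all libraries of the other groups. Against normal, 12.8% of all genes were higher without overlap at 1 h. From 1 h to 4 h, 471 of all 15482 genes were lower without overlap. The log2 difference of Cish between 4 h and 1 h was -2.09 (adjusted p = 0.856 in edgeR). Pias3, an inhibitor of STAT3, was at 45.2 ± 1.57, 24.5 ± 4.85 and 30.01 ± 8.57 CPM.

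Of the 6 transducers, Stat3 was at 144 ± 11.3, 282 ± 100 and 192 ± 40.4 CPM in normal, 1 h and 4 h rats, Jak1 at 172 ± 9.11, 258 ± 1.07 and 225 ± 35.9 CPM, and Tyk2 at 32.0 ± 4.13, 21.0 ± 1.13 and 21.9 ± 5.13 CPM. For each of these 3 genes the edgeR test missed the threshold at both times. Among the 5 further receptors, Il11ra1 was at 123.4 ± 42.6, 66.8 ± 24.9 and 89.2 ± 19.3 CPM, and Cntfr at 12.4 ± 8.56, 34.2 ± 10.6 and 24.2 ± 19.1 CPM. The 5 further ligands tested had medians of -0.37 at 1 h and 0.15 at 4 h. Osm, the ligand of OSMR and a product of leukocytes, was at 1.14 ± 0.421, 1.44 ± 0.728 and 1.65 ± 0.503 CPM. Ctf1, the cardiotrophin 1 gene, was at 20.3 ± 7.50, 11.2 ± 5.93 and 17.9 ± 4.80 CPM. The 3 receptor shedding genes, Adam10, Adam17 and Rhbdf2, had medians of -0.16 and -0.12.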

How the data were processed

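The authors deposited raw counts per gene symbol for 9 libraries. The submitters' processing notes name HISAT2, and the counting program, genome build, annotation and use of strand are not given in the sources used here. Trizol RNA was sequenced on an Illumina HiSeq X instrument per the labels, whereas the study's methods describe Agilent arrays for these samples. The deposited values are whole-number counts and were analysed as such. Overlapping genes cannot be told apart without strand. The labels give 3 rats per group, whereas the methods name 3 individuals for the 9 samples. The methods also state that rats were killed at the end of ischemia and that the artery was taken afterwards. Libraries of different groups therefore come from different rats, and p-values measure the spread between these libraries. No pair of libraries agreed within sampling noise (lowest chi-square per degree of freedom 31.6).

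In R 4.3.3, edgeR 4.0.16 was run with filterByExpr, TMM scaling and the quasi-likelihood F-test on all 9 libraries, with group as the only term and Benjamini-Hochberg adjustment over 15482 genes. DESeq2 1.42.0 (Wald test, or likelihood ratio test for 3 groups) was the alternative tool. The SE is the size of the log2 fold change over the square root of F. A 95% interval is given around a log2 fold change from its SE. Errors beside means are SD. Counting intervals of pooled ratios are exact and cover counting error only. The tests were tried on simulated counts. Promoters came from RefSeq on GRCr8, which was not used for the counts.

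The 10 genes, the pathway lists and the marker lists were chosen with earlier results of these data known. Named pathway genes were those called and, in each role, up to 3 with the smallest unadjusted p against normal. Likeness named the 3 nearest genes. Some genes that these rules name are not reported here. Alternatives were other scalings, filters, DESeq2, only the groups compared, a replicate block, the nerve score as a covariate, and leaving out each library.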

Additional observations from a re-analysis of the deposited data

How the results depend on the processing

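The number of the 10 genes called in edgeR was 0 in each contrast under every edgeR alternative, including all fits without 1 library, and DESeq2 called 3 at 1 h, 1 at 4 h, 0 for 4 h against 1 h and 2 over all 3 groups. The cause of this difference between tools was not tested. DESeq2 gave no adjusted p at 1 h for Il1rn, Il1r2 and Lif. Of the pathway genes, 1 was called at 1 h and 1 at 4 h. DESeq2 called 12 and 8, library size as the only scaling 0 and 2, a fit of only the groups compared 0 and 0, and the nerve score as a covariate 1 and 2. Fits without 1 library gave 0 to 0 at 1 h and 0 to 1 at 4 h. Over all genes, edgeR called 9 at 1 h and 14 at 4 h, and DESeq2 702 and 606.

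Fits without 1 library turned the sign of several changes. At 4 h against normal, these fits ranged from -0.94 to 1.58 for Il1b, -2.55 to 5.12 for Il1rn, -1.25 to 0.10 for Lif and -0.34 to 0.15 for Osmr, and Osmr was at 0.0075 with DESeq2 and 0.0076 with relative log expression factors. At 1 h, Il6st ranged from -0.56 to 0.23. For 4 h against 1 h the ranges were -0.67 to 0.38 for Il1r2, -5.36 to 0.16 for Il6, -0.63 to 0.27 for Il6r and -0.56 to 0.0505 for Il6st, and Il1r2 was at 0.21 with the nerve score. Without replicate 3 at 4 h, Il1rn had no read left at 4 h, so the size of -2.55 depends on the prior count of the fit. Il1b then had 5 and 0 counts at 4 h. The cause of these reversals was not tested. Library size as the only scaling moved the median of all genes to -0.15 at 4 h against normal and -0.24 at 4 h against 1 h.

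A replicate block left 0 of the 10 genes and 0 pathway genes called in each contrast, with 3 of the 10 at an unadjusted p under 0.05 at 1 h (5 without it). The numbers were not taken to pair the rats, since each rat was killed before its artery was taken. Same-numbered libraries correlated from -0.65 to 0.66 across genes in their deviations from the group means. With 3 rats per group and 0 to 31 counts per library, the levels of Il1b, Il1rn, Il1r2 and Lif are bounded by counting error as well as by the spread between rats.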
